A study of Mus musculus with 3 samples.

Results

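The cytosolic ribosomal protein genes were followed through single cells of the mouse cochlea, the hearing organ, and in the blood-forming cells found in the same libraries. They were taken by symbol: every Rpl or Rps symbol with a number, the stalk genes Rplp0, Rplp1 and Rplp2, and Rpsa, with symbols ending in -ps left out. That rule gave 83 genes of 32285 in the table, 51 of the large subunit and 32 of the small one. A UMI, a molecular tag that marks 1 captured RNA molecule, was seen for 82 of them, and Rpl10l had 0. The rule left out Fau, which encodes a ribosomal protein fused to a ubiquitin-like domain and stood at 4003 UMIs in every 1000000 (CPM), and Rpl36al, at 866 CPM.

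The study compared C57BL/6J mice kept without noise (control), mice given 110 dB of noise for 2 h (HHL) and mice given 115 dB for 4 h on 3 days (NIHL). Cochleae were collected 6 h after the last exposure. Each group was a single 10x 3′ library of 6 mice. The 3 libraries came as 1 matrix whose barcodes end in 1, 2 or 3. None of the labels says which suffix is which group. Values are therefore given for library 1, 2 and 3 by suffix, and noise is not compared with control. With 1 library each, no test between libraries was possible, and the intervals given cover counting error only.

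After barcodes with under 500 UMIs, under 200 genes or over 20% mitochondrial UMIs were left out, 37188 barcodes remained (16883, 9602 and 10703 by library), with median depths of 5464, 6294 and 8098 UMIs per cell. The libraries shared 127 cell barcodes in pairs and 1 among all 3. Marker lists placed 29465 cells (79.2%) in classes, and 19 classes had at least 50 cells in a library. A class name means cells that carry that type's markers. The tissue label is cochlea, but its sensory cells were nearly missing: hair cell, melanocyte, pericyte, epithelial and conventional dendritic classes did not reach 50 cells in any library, while most classes were of blood lineages.

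Each cytosolic ribosome carries about one copy of each of these proteins on a scaffold of ribosomal RNA. The large subunit joins amino acids, the small subunit reads the messenger RNA, and the stalk proteins recruit the elongation factors. Their messenger RNAs are known for a start of C and T letters, the TOP tract, through which growth signals set their translation together. Cells that divide or grow make many ribosomes, and cells near the end of their life, such as circulating neutrophils and red cell precursors about to lose their nucleus, make few.

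The tract was looked for at the start sites. The lines give 15 bases on either side of the transcription start that RefSeq places on GRCm38.p6, read on the gene's strand, with the longest run of C and T of at least 5 letters in capitals. The genes are those on which the results below turn. Of the 6, Rpl3l alone lacks a C followed by 5 C or T letters within 5 bases of the start. In Rpl31 the run that meets this rule is a shorter one, left in lower case. Rps2 differed most between classes, Rps9 and Rpl31 left the pattern of the others in 1 class, Rps27 differed most between libraries, and Rpl22l1 and Rpl3l are paralogs.
Rps2, chr17:24720048-24720077, plus strand: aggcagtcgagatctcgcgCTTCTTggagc
Rps9, chr7:3704026-3704055, plus strand: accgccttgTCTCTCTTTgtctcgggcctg
Rps27, chr3:90213634-90213663, minus strand: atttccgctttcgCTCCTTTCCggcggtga
Rpl31, chr1:39367836-39367865, plus strand: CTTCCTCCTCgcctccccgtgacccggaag
Rpl22l1, chr3:28805493-28805522, plus strand: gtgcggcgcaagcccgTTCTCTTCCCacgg
Rpl3l, chr17:24727811-24727840, plus strand: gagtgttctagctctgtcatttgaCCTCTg

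RefSeq promoters were found for 63 of the 83 genes (75 start sites). A C followed by 5 C or T letters within 5 bases of the start was present in 27 of the 75 (36%), against 10.2% of all 32851 promoters in the table. CTTTCC lay from 10 bases before to 20 after the start on the gene's strand in 13.3% against 1.28%. CGGAAG, searched on both strands of the 300-base promoters, was in 60% against 16.9%, and AAGATGGC in 10.7% against 2.75%. TATAAA in the 50 bases before the start on the gene's strand was in 1.33% against 2.63%. These are letter matches in a window and not measured binding.

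Summed over all kept barcodes, the 83 genes took 66650185 of 368214938 UMIs (18.1%). A 3′ library gives 1 UMI per molecule, so levels of different genes can be set side by side without a length correction. The large subunit genes held 52.1%, 54.1% and 54.4% of these UMIs in libraries 1, 2 and 3, and between classes their part ran from 51.7% (immature neutrophils) to 56.5% (myelinating Schwann cells). Among the highest levels were those of Rps12 (4962 CPM), the stalk gene Rplp1 (4346), Rpl13 (4171), Rps27a, which encodes a small subunit protein with a ubiquitin in front of it (4154), and Rpl41, the shortest of these proteins (4042). The lowest levels, among genes with at least 200 UMIs, belonged mostly to paralogs: Rpl3l (2.71 CPM), Rpl7l1 (58.3), Rps27l (446) and Rpl22l1 (508), followed by Rpl4 (827) and Rpl31 (955). Rpl39l had 198 UMIs in all. Processed copies of these genes are common in the genome, and how reads that fit several copies were counted is not given in the sources used here, so the order of levels between genes is less certain than a change of 1 gene between classes.

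The share of messenger RNA given to ribosomal proteins followed the cell type. Early erythroid cells, red cell precursors with Klf1 and Gata1, stood highest, with 31.8% of their UMIs in library 2 and 30.4% in library 3 (317 and 505 cells). They had too few cells to be used in library 1. Promyelocytes or granulocyte-monocyte progenitors, the dividing parents of neutrophils, had the next highest mean, with 25.3%, 30.8% and 25.8% in libraries 1, 2 and 3. Mature neutrophils stood lowest by summed UMIs with 4.56%, 5.67% and 5.93%. By the middle cell, late erythroid cells were lower in library 2 (2.71% against 4.30%) and library 3 (1.63% against 3.81%). Every exact binomial interval of these shares was narrower than 0.1 percentage points.

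Lymphocytes lay close to the progenitors, and in library 3 T cells and natural killer cells stood above them. Natural killer cells held 24.6%, 27.9% and 26.2%, T cells 22.9%, 28.6% and 27.2%, pro-B or pre-B cells 23.8%, 28.4% and 24.9%, and mature B cells 20.1%, 28.0% and 25.3%. The ranges of these 4 classes over libraries overlapped, so their order was not resolved. Basophils or mast cells (mean over libraries 21.8%), monocytes (20.5%) and plasmacytoid dendritic cells (19.7%) formed the next step, again with overlapping ranges.

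The cells that belong to the cochlea and its bone lay lower. Osteoblasts or osteocytes held 12.9%, 13.7% and 13.4%, endothelial cells 11.9% and 12.5% (libraries 1 and 3), fibroblasts 10.1%, 12.99% and 11.8%, and cochlear fibrocytes, counted in library 3 alone (91 cells), 11.1%. Macrophages, at 14.1%, 16.3% and 14.3%, lay above all of these and below all monocyte libraries. Cxcl12-abundant stromal cells (7.44% and 9.07%, libraries 1 and 3) and myelinating Schwann cells (5.27% and 8.44%) were nearest to the neutrophils. The ratio of the highest to the lowest class was 5.54, 5.60 and 5.12 in the 3 libraries.

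**Figure D1:**
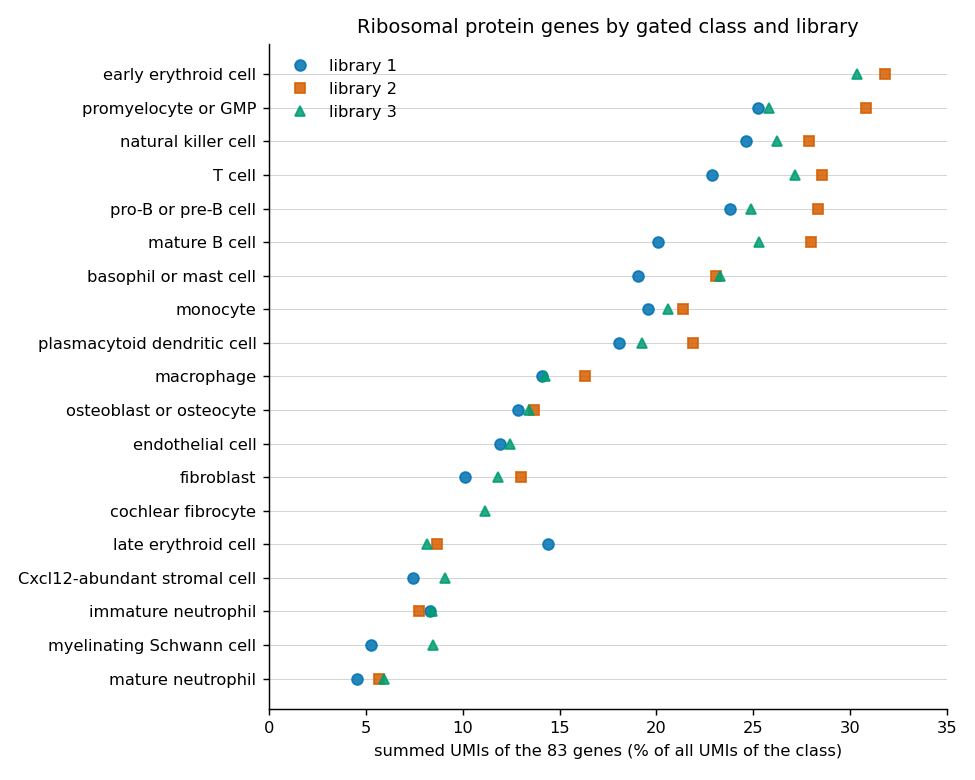
Summed UMIs of the 83 ribosomal protein genes as a percent of all UMIs (x axis) in each of 19 classes (y axis, by mean share), with 1 symbol per library that had at least 50 cells of the class. Shares ran from 4.56% in mature neutrophils of library 1 to 31.8% in early erythroid cells of library 2, and the late erythroid cells of library 1 stood apart from those of the other 2 libraries.

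The number of ribosomal protein UMIs per cell differed more between these classes than the share. The median early erythroid cell carried 12871 of them in library 2 and 11450 in library 3. The median promyelocyte or progenitor carried 3557, 5087 and 6090, the median immature neutrophil 384, 433 and 525, and the median mature neutrophil 90, 126 and 142. When each cell was thinned to 1000 UMIs, the median number of different ribosomal protein genes seen was 75 in early erythroid cells of both libraries, 72 to 73 in progenitors, 35 to 38 in immature and 25 to 29 in mature neutrophils. The order of these classes was thus the same at equal depth.

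Progenitors and immature neutrophils were set apart by nearly every gene. Immature neutrophils, which carry the secondary granule genes Ltf and Camp, were lower than progenitors past 1.5-fold in every library for 80 of 82 ribosomal protein genes. Of all 15139 genes tested, 32.8% were lower by that rule. The median log2 ratio over the ribosomal protein genes was -1.59, -1.98 and -1.65 in the 3 libraries (mean of libraries -1.76), beside -0.41 over all genes. Among the genes furthest down were Rps2, a core protein of the small subunit's messenger RNA entry (log2 ratio -2.45), Rpl12 at the base of the stalk (-2.45), Rpl36a (-2.29), Rpl14 (-2.26) and Rpl3 near the peptide joining centre (-2.17). Rps2 went from 3361 to 652 CPM in library 1, from 3520 to 496 in library 2 and from 5312 to 1192 in library 3, so the ranges did not meet.

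Rps9, which lies at the decoding side of the small subunit, moved least among the genes called lower. It went from 4166 to 2664 CPM in library 1, from 4120 to 1892 in library 2 and from 3948 to 2315 in library 3, a mean log2 ratio of -0.85. The 2 genes not called lower were paralogs. Rpl39l rested on too few UMIs for a direction, with 0.344, 0.401 and 0 CPM in immature neutrophils. Rpl3l was the 1 gene called higher, where 11% of all genes were, at 3.03, 3.11 and 3.39 CPM against 0.749, 1.41 and 0.488 in progenitors. S100a8 and S100a9, alarmin genes of neutrophils, moved with this gap: they took 20.1%, 27.5% and 27.3% of UMIs in immature neutrophils and 2.60%, 2.35% and 1.86% in progenitors. With the 20 most abundant genes outside the module left out of the denominator, 74 of the 82 genes were called lower, beside 16.9% of all genes.

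From immature to mature neutrophils the genes parted ways. Of 82 genes, 33 were lower past 1.5-fold in every library, where 15.1% of all 14399 genes were, and the median log2 ratio was -0.71 beside -0.06 over all genes. This count depended on the settings. It was 49 with the 20 most abundant other genes left out, beside 19% of all genes. It was 1 past 2-fold and 4 under a looser gate between the classes, where the share of all genes was not computed. Rpsa, the laminin receptor homologue on the small subunit, had the lowest ratio (log2 -1.37), from 1446 to 442 CPM in library 1, 1179 to 513 in library 2 and 1841 to 795 in library 3. Rps20 (-1.33), Rpl22l1 (-1.21) and Rps18 (-1.20) were also among the lowest.

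A few genes had like levels in both classes. Rps9 stood at 2664, 1892 and 2315 CPM in immature and at 2501, 2216 and 2568 in mature neutrophils, and the ranges overlapped. Rps27a stood at 2689, 2594 and 2357 and then at 2483, 2511 and 2347 CPM. Rpl37 was higher in mature cells in each library, from 956 to 1155, 1513 to 2169 and 1003 to 1307 CPM, without passing 1.5-fold (mean log2 ratio 0.39). Rps27, a zinc finger protein of the small subunit, was also higher in each library, from 673 to 726, 1141 to 1746 and 589 to 727 CPM (0.34), and passed 1.5-fold in library 2 alone.

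The makeup of the module in mature neutrophils differed in these genes. Rps27a was 5.44%, 4.42% and 3.96% of ribosomal protein UMIs there, against a median over classes of 1.98%, 1.91% and 1.84%. Rps9 was 5.48%, 3.91% and 4.33% against 2.11%, 1.53% and 1.61%. Of 1517 pairs of a gene and a class with at least 50 UMIs, 3 lay above 2-fold of the gene's own median over classes in every library, and 0 lay below by the same rule. Both genes were among the 3. The other was Rpl31 in plasmacytoid dendritic cells, the interferon-making dendritic cells, at 1.33%, 1.03% and 1.29% against 0.542%, 0.448% and 0.486%. Its level there was 2410, 2241 and 2478 CPM, and the next class, early erythroid cells, stood at 1797 and 1799 CPM.

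Red cell precursors differed in another way. In late erythroid cells, marked by Slc4a1 and Alas2, all 80 genes tested were lower than in early erythroid cells past 1.5-fold in libraries 2 and 3, where 52.9% of all 12741 genes were lower. None was higher, where 15.5% of all genes were. The median log2 ratio was -1.93 in library 2 and -1.91 in library 3 (mean of libraries -1.92), beside -1.04 over all genes. Rpl7l1 (-2.57), Rps2 (-2.37), Rpl14 (-2.33), Rpl12 (-2.32) and Rpl4 (-2.30) stood lowest, and Rps29 (-1.27), Rpl39 (-1.29) and Rpl41 (-1.41) highest. Rps2 went from 5833 to 1054 CPM in library 2 and from 6871 to 1420 in library 3.

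Hemoglobin moved with this gap. Hemoglobin genes took 0.573% and 0.534% of UMIs in early and 45.5% and 58.8% in late erythroid cells of libraries 2 and 3. With mitochondrial, hemoglobin and pseudogene UMIs out of the denominator, 55 of the 80 genes were lower and the median log2 ratio was -0.85, beside 23.5% and 0.03 over all genes. With the 20 most abundant other genes left out, 40 were lower and the median was -0.79, beside 21.9% and 0.09 over all genes. The class was also mixed. The middle cell of library 3 gave 1.63% of its UMIs to these genes although the summed share was 8.15%, and in library 2 the values were 2.71% and 8.68%. In library 1, whose 102 late erythroid cells had 25.2% hemoglobin UMIs, the summed share was 14.4% and the middle cell's 9.57%.

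The B cell line showed no such gap. Mature B cells and pro-B or pre-B cells had a median log2 ratio of -0.09 over 80 ribosomal protein genes, beside -0.10 over all genes, and 1 gene was lower past 1.5-fold in every library, where 9.98% of all 9655 genes were. That gene was Rps27l, a paralog of Rps27 and a known p53 target, at 443, 613 and 431 CPM in pro-B or pre-B and 190, 200 and 209 CPM in mature B cells. The groups did not overlap. Rps2, the next lowest, had a mean log2 ratio of -0.82 but missed the fold in library 3. None was higher past the fold in every library, where 8.43% of all genes were. Rps27 came nearest, with log2 ratios of 0.20, 1.06 and 0.30.

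Macrophages were lower than monocytes for 14 of 82 genes, where 10.6% of all 13678 genes were lower, and the median log2 ratio was -0.49 beside 0.19 over all genes. The stalk base Rplp0 led with 2653, 2947 and 3614 CPM in monocytes and 1016, 1327 and 1526 in macrophages. Rpsa followed at 3738, 3608 and 4439 against 1704, 1883 and 1899 CPM. In both genes the groups stood apart. Rpl18 (log2 -0.83) and Rpl8 (-0.80) were also called. With the 20 most abundant other genes left out, 8 passed 1.5-fold, beside 9.07% of all genes. At 2-fold 1 gene passed, and the share of all genes was not computed there. The stalk tip gene Rplp1 did not follow its partner Rplp0, at 4673, 4152 and 4512 CPM in monocytes and 4505, 4773 and 4471 in macrophages. Rps29, a zinc finger protein of the small subunit, was higher in macrophages in each library, at 4953, 7189 and 4243 against 3768, 6001 and 3487 CPM, below the fold. No gene was called higher, where 21.2% of all genes were.

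**Figure D2:**
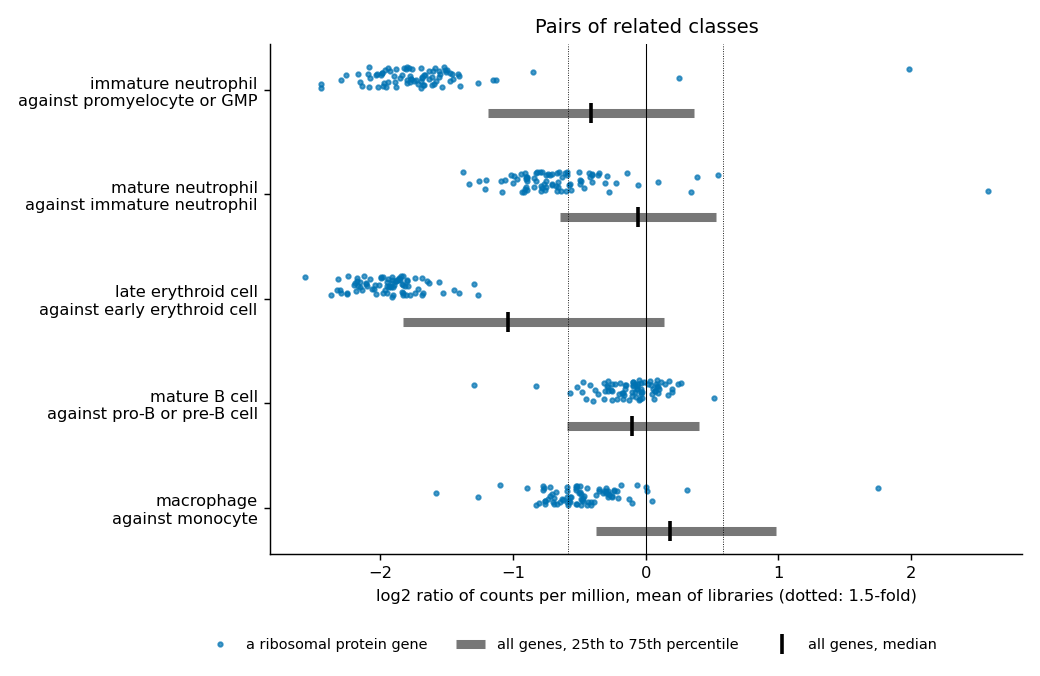
Log2 ratio of CPM between 5 pairs of related classes (x axis, mean of the libraries with both classes), with 1 point per ribosomal protein gene (vertical jitter has no meaning), and the 25th to 75th percentile and median of all genes as a bar. Most points lie left of the all-gene bar in immature neutrophils (median -1.76 against -0.41, with a few such as Rps9 inside the bar) and mostly on it in mature B cells (-0.09 against -0.10), and the points furthest right are Rpl3l in the 2 neutrophil pairs and the sparse Rpl39l in macrophages. GMP is the granulocyte-monocyte progenitor.

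Over all 19 classes, 79 genes had at least 20 UMIs in every class, and the ratio of their highest to lowest class mean had a median of 6.60 and ran from 3.77 to 14.9. All 79 were past 2-fold, where 99.2% of 2524 genes with as many UMIs were, and the median over those genes was 6.07, so the spread of the ribosomal protein genes between classes was near that of other abundant genes. Rps2 spread most (14.9), from 427 CPM in mature neutrophils to 6352 in early erythroid cells. Rps18 (12.6), Rpl14 (11.96), Rpl3 (11.2), Rpl12 (11.1), Rpl10a (10.7), Rpl35 (10.4), Rpl36a (10.2), Rpsa (9.85) and Rpl22l1 (9.63) came next, all with the same 2 classes at the ends. Rps9 spread least (3.77), from 1199 CPM in myelinating Schwann cells to 4513 in pro-B or pre-B cells.

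As parts of the module the genes were steadier. The percent of ribosomal protein UMIs that a gene took differed between its highest and lowest class by a median of 1.67-fold, and by under 2-fold for 59 of the 79. The largest ratios were those of Rps27l (3.83), Rps9 (3.23) and Rps27 (3.03). Rpl31 (2.99), Rpl3 (2.93), Rpl22l1 (2.90) and Rps26 (2.87) followed.

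**Figure D3:**
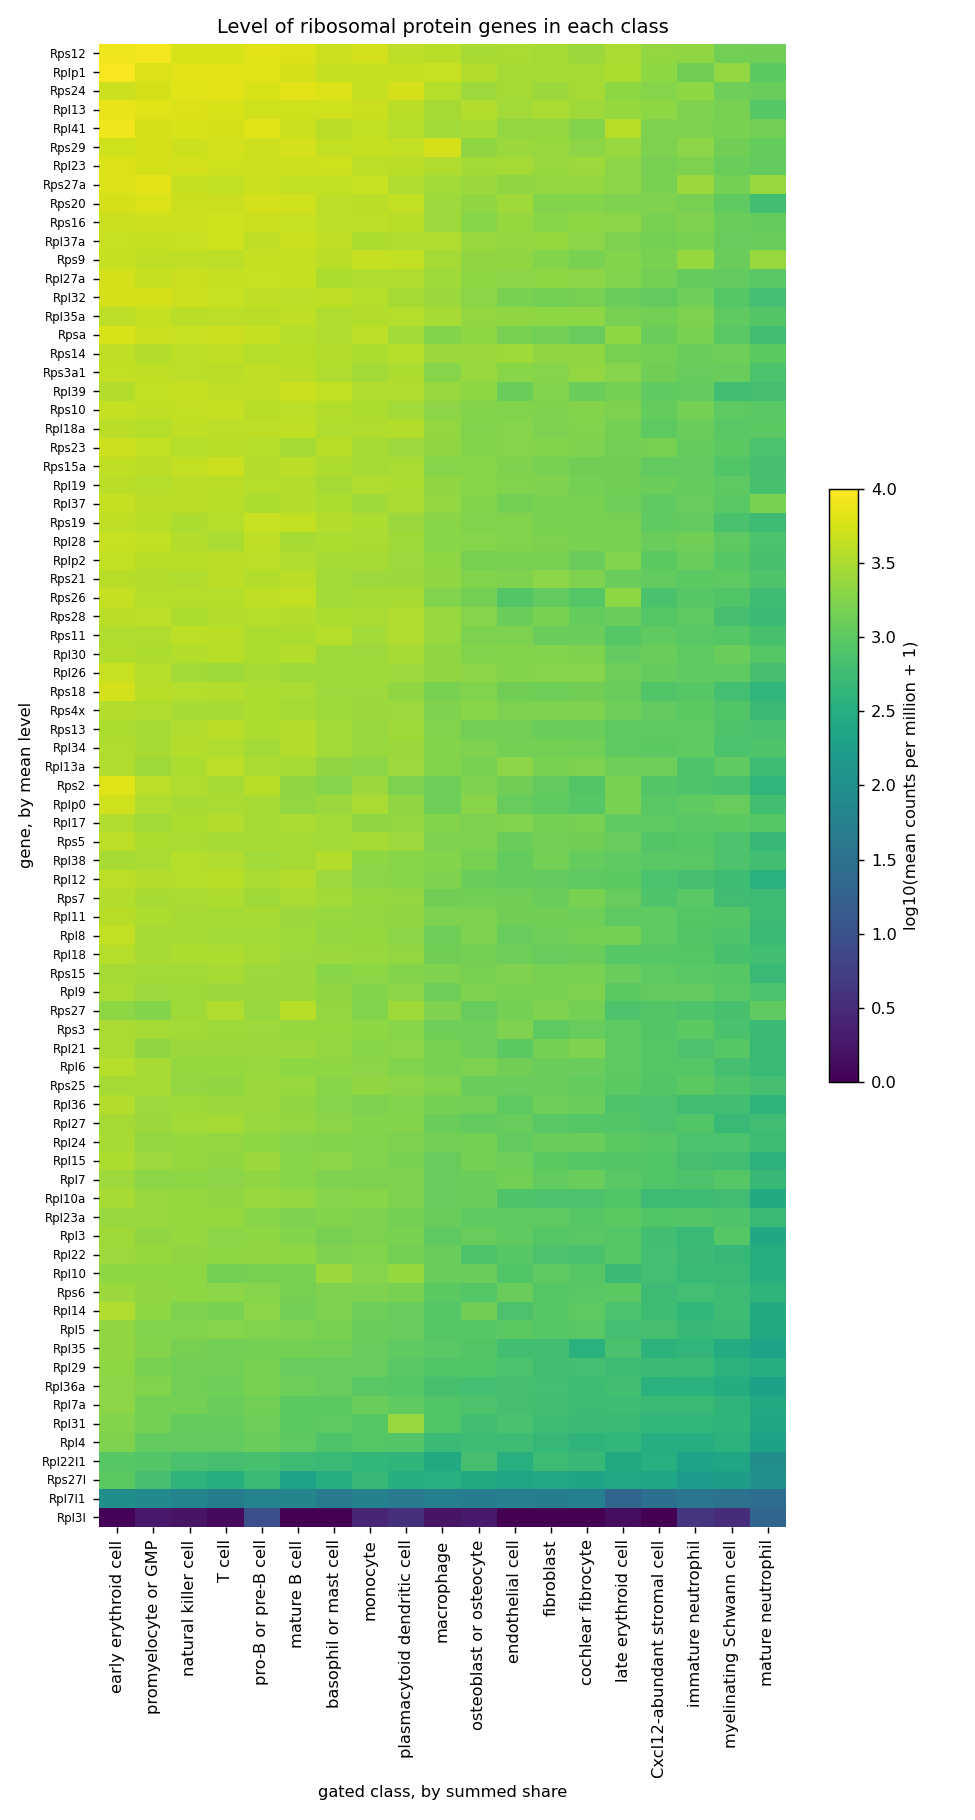
Level of the ribosomal protein genes with at least 200 UMIs (rows, some genes not shown, by mean level) in each class (columns, by summed share), as log10 of mean CPM plus 1. The rows darken together from left to right, and Rps9 and Rps27a in mature neutrophils, Rpl31 in plasmacytoid dendritic cells and the paralogs at the bottom leave that pattern.

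Paralogs are further copies that can take the place of the main protein in a ribosome. Rpl22l1, the copy of Rpl22, had its highest part of the pair in bone-forming cells: 46.9% (95% Clopper-Pearson interval 44.5 to 49.4) in osteoblasts or osteocytes of library 1, 45.7% in library 2 and 44.7% in library 3. Fibroblasts followed with 39.2%, 44.4% and 41.6%, and cochlear fibrocytes of library 3 with 40.7%. Myelinating Schwann cells and Cxcl12-abundant stromal cells stood at 32.4% to 33.3%. Macrophages were lowest with 14.5%, 19.1% and 19.5%. T cells were at 24.8%, 21.4% and 26.7%. The connective tissue and Schwann cell values lay above all blood cell values, narrowly so above immature neutrophils of library 3 (32.2%), and endothelial cells (24.3% and 27.7%) lay among the blood cells.

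Rps27l took its largest mean part of the pair with Rps27 in early erythroid cells (33.1%, with a median over 19 classes of 17.1%). It was 28.3% and 37.9% in early erythroid cells (libraries 2 and 3) and 25.9%, 20.2% and 39.3% in progenitors. Monocytes had 23.9%, 14.6% and 32.1%. Mature B cells were lowest with 8.33%, 2.98% and 7.25%, and T cells had 13.1%, 3.40% and 15.1%. Library 2 was lowest of the 3 in both lymphocyte classes, and there its partner Rps27 was high, at 5660 CPM in T cells against 2055 and 2379 in libraries 1 and 3.

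Rpl3l, known as a copy of Rpl3 in heart and skeletal muscle, had most of its few UMIs in neutrophils. Of 807 Rpl3l UMIs in gated cells, 79.8% lay in mature (416) and immature (228) neutrophils. This part is not scaled to the number of cells or UMIs of these classes. Immature neutrophils, at 3.03, 3.11 and 3.39 CPM, were near the level over all kept barcodes (2.71 CPM). It was 9.12%, 11.2% and 4.43% of the pair in mature neutrophils, with intervals of 7.65 to 10.8, 9.76 to 12.8 and 3.62 to 5.35, and 0.631%, 0.835% and 0.529% in immature neutrophils. Progenitors were at 0.036%, 0.070% and 0.020%, and T cells had 0, 0 and 1 UMI, where the counts of 0 allow up to 0.176% and 0.154% of the pair. Per cell it was sparse: 4.30%, 7.32% and 6.60% of mature neutrophils had an Rpl3l UMI, against 0%, 0% and 0.658% of T cells, a class that should lack it, with 3782, 4244 and 5947 UMIs per T cell and 2551, 2881 and 3812 per mature neutrophil at the median. Rpl3l was higher in mature than in immature neutrophils past 1.5-fold in every library (15.96, 25.5 and 16.9 CPM against 3.03, 3.11 and 3.39), where 12.5% of all genes were.

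The gene downstream of Rpl3l was also highest in mature neutrophils among the classes given here. Rpl3l lies on the plus strand of chromosome 17 (24727820 to 24736143, GENCODE M21 on GRCm38), and Msrb1, a methionine sulfoxide reductase, starts on the same strand 499 bases past its end. Msrb1 stood at 2140, 2563 and 1836 CPM in mature neutrophils, 804, 792 and 663 in immature neutrophils, 418, 418 and 355 in progenitors, 764, 947 and 799 in monocytes, and 84.4, 100.1 and 72.2 in T cells. The gene on the other side, Ndufb10, was lower in mature neutrophils (69.0, 80.1 and 79.9 CPM) than in progenitors (244, 237 and 298). Rpl3l stood at 1.37, 1.98 and 1.65 CPM in monocytes, below immature neutrophils in each library, while the Msrb1 ranges of these classes overlapped. The part of reads from Msrb1 in the Rpl3l counts was not tested.

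Rpl7l1, which works in ribosome assembly more than in the finished ribosome, ranged from 2.06% (late erythroid cells) to 5.37% (mature neutrophils) of its pair with Rpl7 as means over libraries. Rpl39l, known from testis, reached 2.42% of its pair with Rpl39 in Cxcl12-abundant stromal cells of library 1, on 7 UMIs (interval 0.979 to 4.93), and 0.191% in library 3, on 1 UMI. T cells of library 3 had 16 Rpl39l UMIs (0.323%). Rpl10l, also of testis, had 0 UMIs beside 492258 of Rpl10, which allows up to 0.00208%, 0.00219% and 0.00142% of the pair in libraries 1, 2 and 3.

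**Figure D4:**
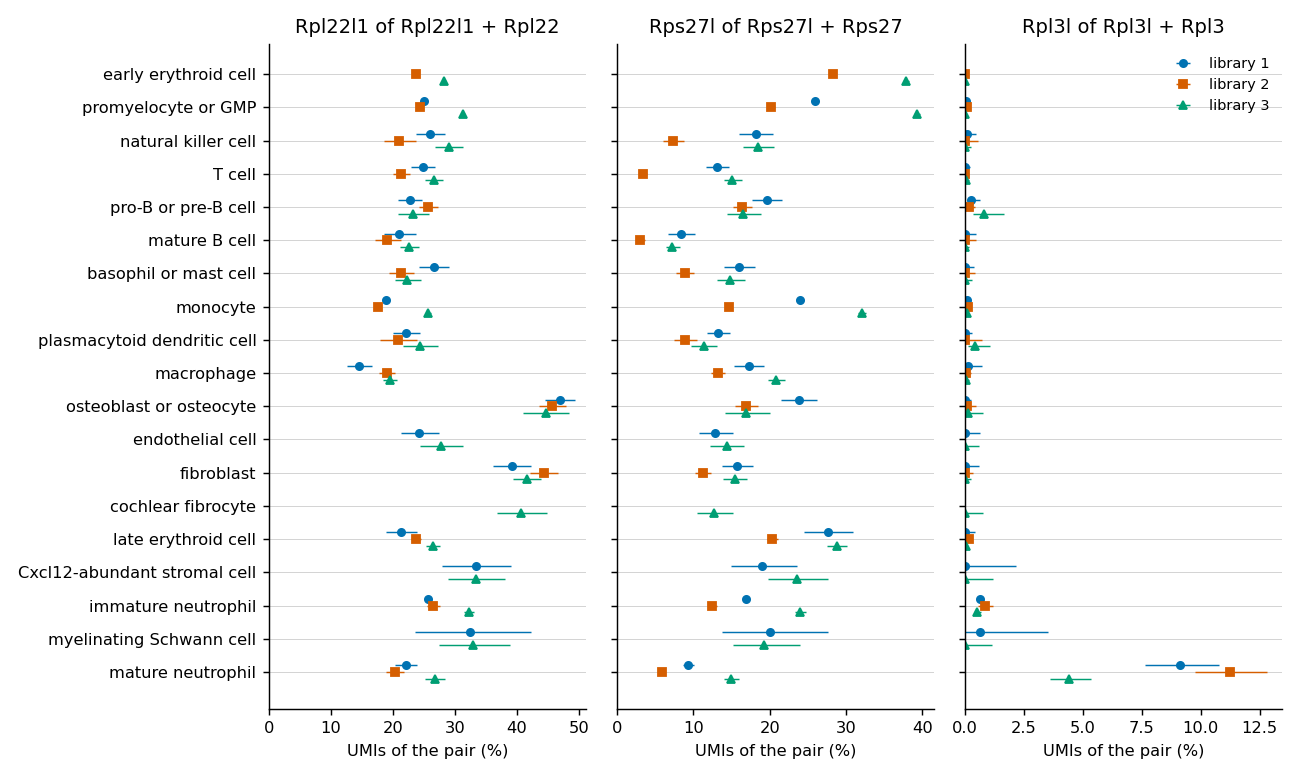
UMIs of the paralog as a percent of its pair (x axis, 95% exact binomial bars for counting error) in each class and library with at least 50 UMIs of the pair, for Rpl22l1 with Rpl22, Rps27l with Rps27 and Rpl3l with Rpl3. Rpl22l1 was highest in osteoblasts or osteocytes (46.9%, 45.7% and 44.7%), and Rpl3l reached 11.2% in mature neutrophils of library 2 and lay near 0 in most other classes.

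The 3 libraries differed in the share given to the module. It was 14.9%, 19.0% and 20.4% of summed UMIs in libraries 1, 2 and 3, and 8.33%, 9.46% and 13.7% in the middle cell. The libraries held different mixtures of cells, with 5482 immature neutrophils in library 1 against 962 and 1165, so the share was compared within classes. In the 14 classes with at least 50 cells in all 3 libraries, library 2 was highest in 10, library 3 in 3 and library 1 in 1. Library 1 was lowest in 12 of the 14. These orders are of summed UMIs. In mature neutrophils library 3 was highest that way, but the middle cell was higher in library 2 (4.30% against 3.81%). Without doublets called by scrublet the summed share of this class was also higher in library 2 (5.17% against 4.66%). The median ratio of library 2 to library 1 was 1.20, of library 3 to library 1 it was 1.06 (17 classes), and of library 3 to library 2 it was 0.942 (15 classes). The ratio of library 2 to library 1 ran from 0.603 in late erythroid cells to 1.39 in mature B cells.

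Gene by gene, most pairs did not differ between libraries past 1.5-fold. Of 1128 pairs of a ribosomal protein gene and a class, 62 (5.50%) were above the geometric mean of the other 2 libraries past 1.5-fold in library 1, 125 (11.1%) in library 2 and 39 (3.46%) in library 3. Over all 142173 pairs of a gene and a class, 17.9%, 12.2% and 12.4% were. Below by the same rule were 91, 32 and 35 pairs (8.07%, 2.84% and 3.10%), against 10%, 13.6% and 18.6% of all pairs. Of the 62 pairs of library 1, 59 were in late erythroid cells, whose hemoglobin share differed between libraries. There 61.4% of all genes were above, and the median log2 ratio was 0.77 over both the 80 ribosomal protein genes tested and all genes. The count for library 1 was 7 with mitochondrial, hemoglobin and pseudogene UMIs out of the denominator. With TMM scaling the counts were 4, 141 and 67. Under either setting the share over all pairs was not computed.

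The genes high in library 2 were largely the same in every class. Rps27 and Rpl39 were highest in library 2 in 14 of 14 classes, and Rpl34, Rpl35, Rpl35a, Rpl37, Rpl37a, Rpl38, Rps21, Rps26, Rps28 and Rps29 in 13. Rps27 differed most. In mature B cells it stood at 2086, 6507 and 2673 CPM in libraries 1, 2 and 3, in natural killer cells at 1869, 4168 and 2038, in monocytes at 1312, 2623 and 1252, in macrophages at 1385, 2407 and 1318 and in osteoblasts or osteocytes at 860, 1609 and 1068. Rpl39, at the exit tunnel of the large subunit, stood at 2765, 6122 and 4215 CPM in basophils or mast cells and at 1159, 2426 and 1560 in fibroblasts. Rpl35 stood at 1544, 2740 and 1163 CPM in progenitors. Library 2 was the high one in each of these.

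The other libraries had their own sets. Rpl23a and Rps15 were highest in library 1 in 14 of 14 classes and Rpl13a in 13, with Rpl13a at 1061, 581 and 722 CPM in immature neutrophils. Rpl8, Rplp0 and Rps13 were highest in library 3 in 13 classes. Rps2 in mature neutrophils stood at 252, 331 and 699 CPM, Rps18 at 243, 388 and 642 and Rpl14 at 151, 248 and 430, each highest in library 3. These are levels in summed UMIs, and those of single genes without doublets were not computed. Rps2 in monocytes stood at 2307, 1753 and 3432 CPM. Rpl36 was among the 4 most different genes in 5 of the 14 classes, as in pro-B or pre-B cells at 1812, 3409 and 2283 CPM.

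Many of the genes high in library 2 have a short coding sequence. Coding lengths, from the principal transcripts of GENCODE M21, ran from 75 to 1257 nt (median 456) over the 83 genes. The rank correlation of coding length with the log2 ratio of library 2 to the other 2 libraries was between -0.68 and -0.51 in all 14 classes (median -0.61, about 80 genes each). The 13 genes shorter than 330 nt, the group of Rpl41, Rpl39, Rps29, Rps28, Rpl38 and Rps21, had a median log2 ratio of 0.67, beside 0.05 for the longer ones. Rpl41, the shortest at 75 nt, had 0.34, and Rps27l, as long as Rps27 (252 nt), had 0.09 where Rps27 had 0.98. Rpl35, among the longer ones at 369 nt, had 0.79. The 3 log2 ratios of a gene in a class sum to 0, so the values of the other libraries, 0.39 to 0.66 in library 3 and 0.14 to 0.35 in library 1, are not separate observations.

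Among genes outside the module the relation was weak. The correlation with library 2 ran from -0.15 to 0.06, and genes shorter than 330 nt had a median log2 ratio of 0.11 against -0.06 for longer ones, higher in 13 of the 14 classes. The genes share libraries and classes and are not independent, so these correlations are given without a p-value. Whether capture, fragment size, mapping or noise group accounts for the short genes was not tested, and library and noise group cannot be told apart. Rps27rt, a near copy of Rps27, held 1.80%, 2.27% and 2.70% of the UMIs of both in the 3 libraries.

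**Figure D5:**
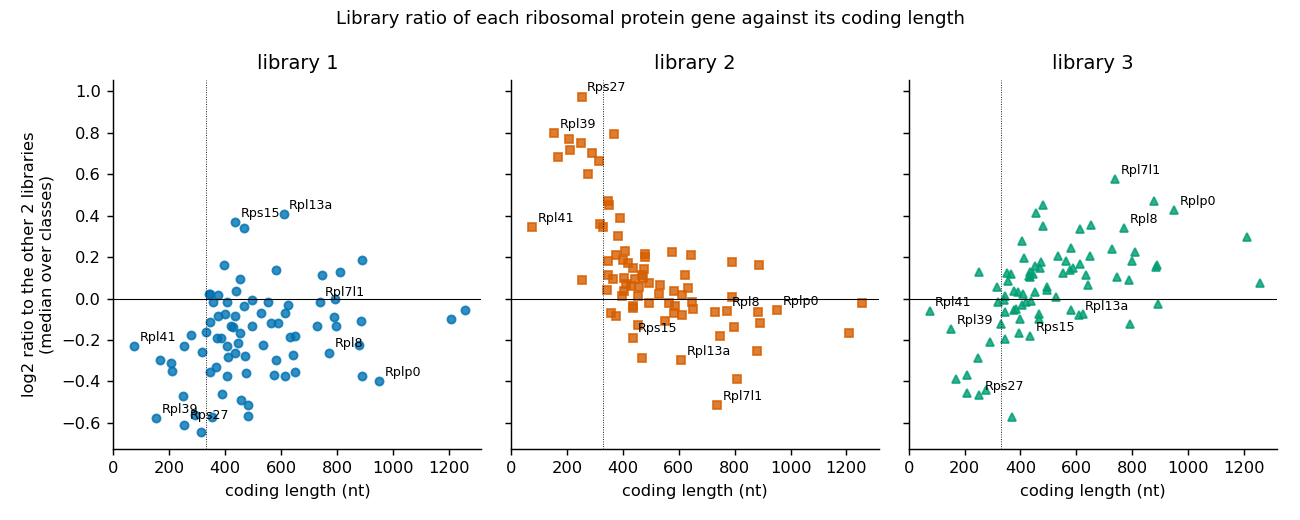
Log2 ratio of a library to the other 2 (y axis, median over 14 classes) against coding length in nt (x axis) for each ribosomal protein gene measured in at least 10 classes, 1 panel per library, with a dotted line at 330 nt. In library 2 the short genes lie above 0, with Rps27 at 0.98 and Rpl39 at 0.80. Most longer genes scatter about 0, but some lie well above it, such as Rpl35 (369 nt) at 0.79.

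Other genes of the translation machinery followed the module over the 19 classes, as a description across classes that share libraries. Elongation factors and other TOP genes, 20 in all, took from 0.960% of UMIs in mature neutrophils to 3.02% in early erythroid cells (Pearson r with the module's share 0.98). Fau (4003 CPM), Tpt1 (3399), the elongation factor Eef1a1 (2761) and the ribosome scaffold Rack1 (1451) were the highest, and Npm1 (15.9-fold between classes) and Eef1g (12.3-fold) spread most. In immature neutrophils against progenitors 17 of the 20 were lower, against 80 of 82 ribosomal protein genes. Of all genes 32.8% were. In mature against immature neutrophils 1 of the 20 was lower, where 15.1% of all genes were.

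The nucleolar genes that build ribosomes had lower ratios still. Of 33 ribosome biogenesis genes, 32 were lower in immature neutrophils than in progenitors, with a median log2 ratio of -2.75, and 33 were lower in late than in early erythroid cells (-3.47). Of all genes 32.8% and 52.9% were lower in these pairs. From immature to mature neutrophils 2 biogenesis genes were lower, where 15.1% of all genes were, and the median of the list was -0.19. In B cells this list and the module parted: 14 of 33 biogenesis genes were lower in mature B cells (median log2 -0.88), beside 1 of 80 ribosomal protein genes. Of all genes 9.98% were. Nucleolin, Ncl (863 CPM), and Nop10 (215), part of the box H/ACA particles that modify ribosomal RNA, were the most abundant, followed by the polymerase subunit Polr1d (197) and Nhp2 (155). Nolc1 ran from 18.1 CPM in mature neutrophils to 327 in early erythroid cells.

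The 78 mitochondrial ribosomal protein genes ran from 0.231% to 1.04% of UMIs between the same 2 classes. In immature neutrophils 70 were lower than in progenitors, where 32.8% of all genes were. In mature against immature neutrophils 34 of 78 were lower, where 15.1% of all genes were. Mrpl33 was the most abundant (401 CPM), and Mrpl52 spread most, from 34.3 CPM in mature neutrophils to 618 in early erythroid cells. Genes of ribosome storage and translation repression, 15 in all, ran from 0.072% in immature neutrophils to 0.287% in early erythroid cells. They were led by Serbp1 (738 CPM), which holds idle ribosomes, and Pdcd4 (111), an inhibitor of the helicase eIF4A. Targets of p53, which ribosomal stress is known to induce, took from 0.018% in late erythroid cells to 0.125% in myelinating Schwann cells, where Cdkn1a stood at 932 CPM. S and M phase genes correlated less with the module (Spearman rho 0.60). Late erythroid cells had the highest mean share of them (0.595%, from 0.741%, 0.721% and 0.323% by library), with Mki67 at a mean of 1295 CPM. In library 3 early erythroid cells were higher (0.505%).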

How the data were processed

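The authors deposited 1 table of UMI counts per gene and cell barcode for all 3 libraries, written by Cell Ranger 7.1.0 per the file headers. Reads were set against GRCm39, per the submitters' processing notes. For the annotation, cell calling, pooling and reads that fit several genes, the settings were not given in the sources used here.

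Barcodes with at least 500 UMIs, at least 200 genes and at most 20% mitochondrial UMIs were kept. Total UMIs of kept barcodes were 131084591, 92188324 and 144942023 in libraries 1, 2 and 3. Of the barcodes, 81.9%, 80.9% and 73.6% entered a class. For the class gates, a marker's log2 value of 1 plus counts per 10000 was divided by its mean in the 50 cells where it was highest, and the marker was on at 0.3 or more. A cell joined the list of 24 with the highest mean if at least 3 of its markers were on and its mean lay at least 0.1 above every other list. This rule and the 5 pairs of classes were set after seeing the data. The members and lists were chosen with earlier results of these data known. No cells were removed as doublets in the values reported. Scrublet (scanpy 1.11.5, expected rate 6%) called 951, 450 and 506 cells, which were left out as an alternative.

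UMIs were summed per class and library and scaled to CPM. A class was used with at least 50 cells, and a gene with at least 20 summed UMIs. A gene was called higher or lower past 1.5-fold in every library, and a count of 0 was set to a floor of 3 counts. Intervals are exact Clopper-Pearson 95% intervals, which cover counting error only. The ratio step was tested on simulated data. Named genes were the paralogs, the 6 highest and 6 lowest by CPM (at least 200 UMIs), the 10 with the largest class ratio, in each class the 4 with the largest library ratio, and of each other list the 4 highest by CPM and the 2 with the largest class ratio. Genes named in the class pairs, in departures from the module and next to Rpl3l were chosen after their values were seen. Some genes that these rules would name are not reported here. Alternatives changed the cell filter, doublets, denominator, gate, scaling (TMM, edgeR 4.0.16 in R 4.3.3), count filter, fold and depth. Scripts ran in Python 3.11.15 with pandas 2.3.3, numpy 2.4.6, matplotlib 3.10.9 and scipy 1.17.1.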

Additional observations from a re-analysis of the deposited data

How the results depend on the processing

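Of 119 values that answer a comparison, recomputed under the alternatives, 74 stayed within their counting error or within 1.5 times and 45 moved. These are shares, counts and ratios, for which a change of direction was not defined. The module's share in libraries 1, 2 and 3 was 14.9%, 19.4% and 20.8% with the stricter cell filter, 14.8%, 19.1% and 20.4% without doublets called by scrublet, and 15.5%, 20.96% and 21.9% without mitochondrial, hemoglobin and pseudogene UMIs. With cells thinned to 1000 UMIs it was 11.6%, 13.4% and 15.1%. The thinned value is a mean over cells and not a share of summed UMIs, so it does not measure depth alone. The ratio of highest to lowest class was 5.62, 5.65 and 5.41 with the cell filter, 6.45, 6.16 and 6.53 without doublets, 5.77, 5.75 and 5.30 with the smaller denominator, and 5.59, 5.76 and 5.52 with a stricter gate. From the means over cells at 1000 UMIs it was 6.21, 6.37 and 7.01. Alternatives chosen after seeing the data gave 5.15, 5.46 and 4.46 (gate margin 0.05) and 4.11, 3.72 and 3.40 (20 most abundant other genes left out). Mature neutrophils were the lowest class in every library and setting except library 1 without those 20 genes, where myelinating Schwann cells were (7.18%). Without them the highest class of library 2 was the progenitors (35.2%) and not early erythroid cells.

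Pairs above the other libraries in library 1 were 7 with the smaller denominator, 4 with TMM factors and 33 with a gate margin of 0.05. Those in library 3 were 67 with TMM factors. At 2-fold they were 11, 8 and 8. Genes lower in mature than in immature neutrophils were 1 at 2-fold, 4 with a gate margin of 0.05 and 49 without the 20 genes. Those lower in macrophages were 1 at 2-fold and 8 without the 20 genes, and those lower in late erythroid cells were 40 without the 20 genes. Why these counts moved was not tested. The share of all genes beside them was computed only for class pairs under the other denominators. Of 385 other values, 278 moved. Most of these values, 351, were shares of a class in a library, of which 269 moved beyond their counting error, which is small at these depths. The rest were median log2 ratios of the module in the class pairs and the Rpl3l part of its pair in mature neutrophils. No median log2 ratio past 1.5-fold changed direction. Depth limits Rpl3l, Rpl39l and Rpl10l, whose UMIs are few. No paired analysis was possible because each group is 1 library and no library is tied to a group.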
